A study of Mus musculus with 4 samples.

Results

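Genes of the neuronal cytoskeleton were examined for REST-bound regions in mouse embryonic stem cells (ESCs). The set comprised 10 genes, chosen by name: the neurofilament genes Nefl, Nefm and Nefh, the related intermediate filament gene Ina, the tubulin gene Tubb3, and the microtubule-associated genes Mapt, Mtap2, Mtap1b, Mtap6 and Dcx, out of 22367 protein-coding genes in the GENCODE M1 annotation of the mm9 assembly. A region was assigned to a gene when its midpoint lay in the gene or within 20 kb of any of its transcription start sites (TSSs), and where there was none the nearest region was recorded instead. By this rule 6 of the 10 genes (Nefl, Nefm, Nefh, Ina, Tubb3 and Dcx) had at least 1 region, whereas 10.1% of all protein-coding genes did (2269 genes). The exact 95% interval of that share, 9.75 to 10.5%, treats genes as independent, although neighbouring genes can share a region, and covers no other error. The 10 genes were chosen with earlier results of these data known, so the contrast is a description only. The 6 genes with a region held 8 of the 2504 regions in the list. Of the 8, 7 contained a full REST motif, beside 58.1% of all regions. The motif was commoner among the more enriched regions, where most of the 8 stood, so 58.1% is not the share for regions of like enrichment. The remaining 4, Mapt, Mtap2, Mtap1b and Mtap6, all encode microtubule-associated proteins and had no region by this rule.

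REST was immunoprecipitated from wild type N6 ESCs (strain C57BL/6) that had been cultured in LIF, leukemia inhibitory factor, over irradiated fibroblast feeders and then passaged on gelatin to remove the feeders, using a rabbit polyclonal antibody raised against a C-terminal peptide of REST. The series held 4 samples, of which the input DNA and the H3K27me3 ChIP of wild type and of REST -/- ESCs were not analysed here. The ChIP DNA of 3 technical replicates from each of 2 biological replicates was pooled into 1 library of a single ESC line, so the spread between replicates could not be measured, no test was run, and every comparison below is a description of 1 list. Each region carried its rank by enrichment, 1 being the most enriched, without a height, a p-value or the number of reads behind it. The list was longer than the set of regions that the study counted, and which of its regions belong to that set was not stated.

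REST is a zinc finger repressor that binds the RE1 element and recruits histone deacetylases and other cofactors to keep neuronal genes silent outside the nervous system. Neurofilaments are the intermediate filaments of axons, built from light, medium and heavy subunits together with alpha-internexin, and they set axon calibre. Microtubules, assembled from tubulin, are the tracks of axonal and dendritic transport, and tau, the MAP proteins and doublecortin bind along them and stabilise them. Most of these proteins appear as neurons leave the cell cycle and extend processes.

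The RE1 is bipartite, with 9 defined bases on the left and 10 on the right, separated by 2 free bases. The consensus was TTCAGCACCNNGGACAGCGCC, in which the right element was read from the listed regions as the most frequent base at each place after a perfect left element. A full RE1 was defined as a match on either strand with at most 5 mismatches over the 19 defined bases. The 7 full RE1s of the cytoskeletal genes are shown because they are the sequences through which the regions can be compared. Each is written 5′ to 3′ on the strand of the motif, in mm9, with 40 bases of genome on each side in lower case and the RE1 in capitals.
Nefm, region of rank 220, chr14:68743741-68743841, plus strand: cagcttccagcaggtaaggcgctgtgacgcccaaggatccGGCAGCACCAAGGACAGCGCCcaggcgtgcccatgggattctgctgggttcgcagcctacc
Nefh, region of rank 200, chr11:4849361-4849461, plus strand: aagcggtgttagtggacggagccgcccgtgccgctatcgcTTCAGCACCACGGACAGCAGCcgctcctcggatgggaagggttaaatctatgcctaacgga
Nefl, region of rank 760, chr14:68698504-68698604, plus strand: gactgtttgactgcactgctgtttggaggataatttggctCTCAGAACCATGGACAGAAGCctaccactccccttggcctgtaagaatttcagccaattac
Ina, region of rank 289, chr19:47080964-47081064, minus strand: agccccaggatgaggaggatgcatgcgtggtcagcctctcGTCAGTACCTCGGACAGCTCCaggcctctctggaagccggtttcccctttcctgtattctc
Ina, region of rank 413, chr19:47091125-47091225, minus strand: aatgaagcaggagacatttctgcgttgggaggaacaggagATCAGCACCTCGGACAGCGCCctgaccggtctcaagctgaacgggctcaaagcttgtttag
Tubb3, region of rank 216, chr8:125938316-125938416, plus strand: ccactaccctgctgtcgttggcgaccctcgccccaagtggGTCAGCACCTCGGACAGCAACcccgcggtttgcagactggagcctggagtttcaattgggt
Dcx, region of rank 2108, chrX:140339378-140339478, plus strand: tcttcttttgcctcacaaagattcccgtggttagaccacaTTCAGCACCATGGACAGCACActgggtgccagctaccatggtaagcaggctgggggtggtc

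Each of the 3 neurofilament subunit genes had a region upstream of its TSS. At Nefm, which encodes the medium subunit (ENSMUSG00000022054.5, minus strand, chr14:68700647-68742903), a single region of rank 220 spanned chr14:68743644-68743952, a width of 308 bp, and its midpoint lay 0.895 kb upstream of the TSS, the closest to its gene's TSS among the 8 regions. Its RE1 at chr14:68743781-68743801 carried 2 mismatches and was centred 7.5 bp from the region's midpoint. At Nefh, the heavy subunit gene (ENSMUSG00000020396.7, minus strand, chr11:4838757-4848067), there were 2 intergenic regions. The better ranked, 200, spanned chr11:4849280-4849588, 1.367 kb upstream of the TSS, with an RE1 of 2 mismatches, and it was the most enriched region of the whole gene set. The other, of rank 1186, spanned chr11:4853484-4853771, 5.561 kb upstream and 4.194 kb from the first, and it was the only region of the 8 with no full RE1. A left element with 1 mismatch was found there, and the best alignment to the whole motif carried 7 mismatches.

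Nefl, the light subunit gene (ENSMUSG00000022055.7, plus strand, chr14:68701920-68707152), lies beside Nefm on the same chromosome in the opposite orientation, and the annotation holds 1 long Nefm transcript that runs over it. Its region, of rank 760, spanned chr14:68698435-68698716 in intergenic sequence 3.345 kb upstream of the Nefl TSS. The RE1 of Nefl was the most divergent of the gene set, with 5 mismatches, the most that the definition allows, and no other RE1 match was found within 20 kb of its TSS. The neighbouring neurofilament genes thus differed both in rank, 220 against 760, and in mismatches, 2 against 5, although with 1 pooled library the error of a rank was unknown.

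Ina encodes alpha-internexin, the neuronal intermediate filament protein that appears early in development and assembles with the neurofilament subunits (ENSMUSG00000034336.3, plus strand, chr19:47089188-47099817). It had 2 regions, both with a full RE1 on the minus strand, 10.174 kb apart. The first, of rank 289, spanned chr19:47080905-47081184, 8.143 kb upstream of the Ina TSS and inside an intron of Nt5c2, the gene of a cytosolic nucleotidase, whose own TSS was 8.598 kb away. The second, of rank 413, spanned chr19:47091080-47091357 in intron 1 of Ina, 2.030 kb downstream of the TSS. The 5′ end of Nt5c2 overlaps that of Ina on the other strand, and the Nt5c2 TSS was nearer to this second region, at 1.575 kb, so that assignment by the nearest TSS would have given it to Nt5c2. The RE1 of intron 1 differed from the consensus at 1 base, the fewest of the gene set, and the upstream RE1 at 3 bases. The pair shared 16 of the 19 defined bases. Ina and Nefh were the 2 of 10 genes with more than 1 region, and 1.48% of all protein-coding genes had 2 or more.

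At Tubb3, the class III beta-tubulin gene used as a marker of newly formed neurons (ENSMUSG00000062380.3, plus strand, chr8:125935324-125945915), a region of rank 216 spanned chr8:125938201-125938530 in intron 1, 3.042 kb downstream of the TSS. It was the widest of the 8 at 329 bp, and its RE1, with 3 mismatches, was centred exactly on the region's midpoint. Intron 1 of Tubb3 also lies within the annotated gene Gm20388, and the TSS of Mc1r, which encodes the melanocortin receptor of pigment cells, was 7.383 kb from the region.

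Dcx, which encodes the doublecortin of migrating neuroblasts (ENSMUSG00000031285.7, minus strand, chrX:140290385-140367854), was the only microtubule-associated gene of the set with a region. The region spanned chrX:140339323-140339509 and was both the narrowest, at 186 bp, and the least enriched, with rank 2108. It lay in intron 3 of all 7 annotated transcripts, 28.177 kb downstream of the nearest TSS, so it was assigned through the gene body and not by distance to a TSS. With TSS distance alone, 5 of the 10 genes would have had a region. The RE1 of Dcx carried 2 mismatches, as many as those of Nefm and Nefh. Of the 280 regions whose best match had 2 mismatches, 262 ranked better than that of Dcx and 17 ranked worse. The X chromosome held 23 regions with a median rank of 1856, and 15 of them ranked better than the region in Dcx.

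For Mapt, Mtap2, Mtap1b and Mtap6 the nearest region lay outside these limits and nearer to another gene. The gene of tau, the main axonal microtubule-associated protein, Mapt (ENSMUSG00000018411.10, plus strand, chr11:104092704-104193404), came closest by distance to a TSS, with a region of rank 773 at chr11:104059287-104059581, 33.270 kb upstream of its first TSS and 11.793 kb from the TSS of 4933407P14Rik. This region held a full RE1 with 4 mismatches. Mtap2 encodes the dendritic protein MAP2 (ENSMUSG00000015222.10, plus strand, chr1:66221847-66489157), and its nearest region, of rank 1684 at chr1:66514633-66514914, lay 25.616 kb beyond the end of the gene and 34.624 kb from the nearest of its TSSs. That region was in the promoter of Unc80, a subunit gene of the sodium leak channel, 0.168 kb from its TSS, and held both elements with a gap of 9 bases in place of 2. The nearest region of Mtap1b (ENSMUSG00000052727.4, minus strand, chr13:100191419-100286557), whose product is found in growing axons, was 384.067 kb away in Cartpt, a neuropeptide precursor gene, with rank 524 and an RE1 of 4 mismatches. At Mtap6 (ENSMUSG00000055407.7, plus strand, chr7:106415957-106485647), which encodes the protein that makes microtubules stable in the cold, the nearest region was 262.623 kb away in an intron of the arrestin gene Arrb1, with rank 2423 and a right element alone. Among regions assigned by TSS distance the farthest was that of Ina at 8.143 kb, and among those left out the nearest to a TSS was that of Mapt at 33.270 kb.

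**Figure D1:**
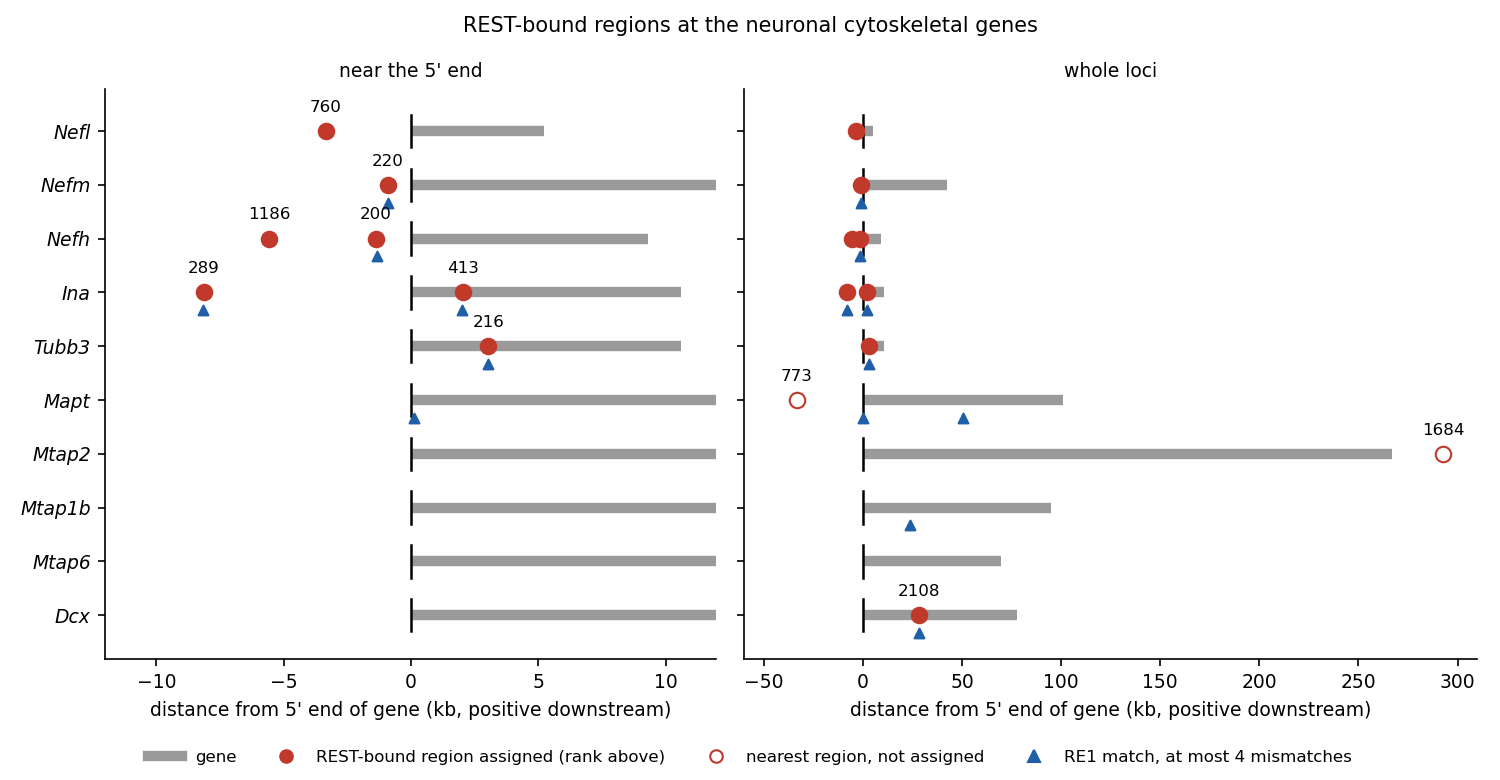
Position of REST-bound regions along the 10 genes, in kb from the 5′ end of each gene and positive downstream, near the 5′ end (left) and over the whole loci (right). Filled circles are assigned regions with their ranks, open circles the nearest regions of Mapt (rank 773) and Mtap2 (rank 1684), and triangles RE1 matches with at most 4 mismatches; the nearest regions of Mtap1b and Mtap6 lie outside the plotted range.

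The genes with and without a region differed in length. All 5 genes of the set under 50 kb had a region (Nefl, Nefm, Nefh, Ina and Tubb3), against 8.55% of the 17526 protein-coding genes of that length. Among the 5 genes of 50 kb or more, Dcx alone had one, against 15.9% of 4841 genes. Across all genes the long ones thus held a region more often than the short ones, and in this set it was the other way round. In the set, length could not be told apart from gene family, since the 5 long genes were the 5 microtubule-associated ones. The same 5 short genes had a region within 10 kb of a TSS, 5 of 10, compared with 5.81% of all protein-coding genes.

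Apart from those of Dcx and the second Nefh region, the regions stood in the upper part of the list. Ranks ran from 200 to 2108 with a median of 351. The median of the whole list was 1252.5, and that of the 1331 regions with a midpoint within 20 kb of a protein-coding TSS was 1174. Of the 8 regions, 5 were among the 626 best ranked, and 7 were among the best ranked 1252. Widths ran from 186 to 329 bp with a median of 284 bp, beside 264 bp for the whole list, and GC content ran from 41.9% in the Ina intron to 58.5% at the second Nefh region, with a median of 50.7% beside 51.6%.

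A full RE1 was present in 7 of the 8 regions, compared with 58.1% of all regions (1454 of 2504), and each of the 7 held exactly 1. None of the 16 windows of equal width placed 2 kb to either side of the 8 regions held a full RE1, and 0.923% of the 4986 such windows around all regions did. Regions with a full RE1 had a median rank of 978, beside 1252.5 for the whole list, and the 8 regions had a median of 351. The share of 58.1% is therefore not that of regions of like rank. The rank worsened with the number of mismatches, from a median of 703 with 1 mismatch to 1412 with 5. Set against regions with equally many mismatches, the cytoskeletal regions other than that of Dcx lay on the better side of the median. The region at Nefh with 2 mismatches was outranked by 40 of 280 regions, and that at Nefm by 46. The region at Tubb3, with 3 mismatches, was outranked by 49 of 397, and the upstream Ina region by 62. In the Ina intron, 23 of 83 regions with 1 mismatch ranked better. For Nefl, with 5 mismatches, 75 of 317 did.

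**Figure D2:**
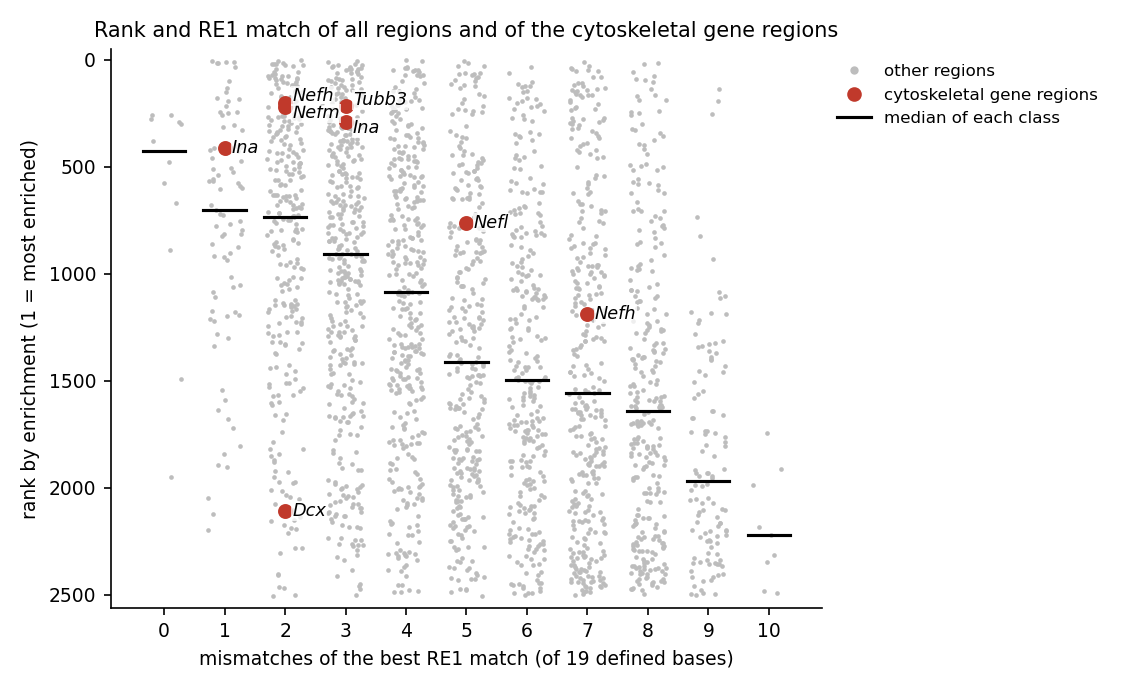
Rank of each region by enrichment (vertical axis, 1 at the top) against the number of mismatches of its best RE1 match over 19 defined bases (horizontal axis), with a bar at the median rank of each class. The 8 regions of the cytoskeletal genes are red, and all but that of Dcx (rank 2108, 2 mismatches) lie above the median of their class.

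Within the RE1 the departures from the consensus fell at few places. The 21 bases of each RE1 are given again with the differing bases in capitals, and differences are written with the consensus base first, the place counted from 1 at the 5′ end of the RE1, and then the base found.
Nefm: GGcagcaccaaggacagcgcc
Nefh: ttcagcaccacggacagcAGc
Nefl: CtcagAaccatggacagAAGc
Ina upstream: GtcagTacctcggacagcTcc
Ina intron: Atcagcacctcggacagcgcc
Tubb3: GtcagcacctcggacagcAAc
Dcx: ttcagcaccatggacagcAcA
The first base differed in 5 of the 7, as T1G at Nefm, Tubb3 and the upstream Ina region, T1C at Nefl and T1A in the Ina intron. Place 19 also differed in 5 of 7, as G19A at Nefh, Nefl, Tubb3 and Dcx and G19T upstream of Ina. Nefh and Nefl shared the pair G19A and C20G, whereas Tubb3 had G19A with C20A and Dcx G19A with C21A. Places 3 to 5 and 7 to 9 of the left element and places 12 to 17 of the right element were intact in all 7.

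These were places that also varied in the list as a whole. Among the 1454 regions with a full RE1, place 19 differed in 55.1% and place 1 in 44.4%, followed by place 20 in 37.8% and place 6 in 37.1%, while place 8 differed in 0.55% and place 7 in 0.894%. All 18 differences in the cytoskeletal RE1s fell at places 1, 2, 6 and 18 to 21, which held 77.4% of the 4879 differences in all regions. These places were picked after the sequences had been seen, so the contrast of 18 of 18 with 77.4% is a description only. The RE1 was on the same strand as the gene at Nefl and Tubb3 and on the opposite strand in the other 5 cases. The middle of the RE1 lay between 0.0 and 44.0 bp from the middle of the region, and the median over all regions with a full RE1 was 24 bp.

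**Figure D3:**
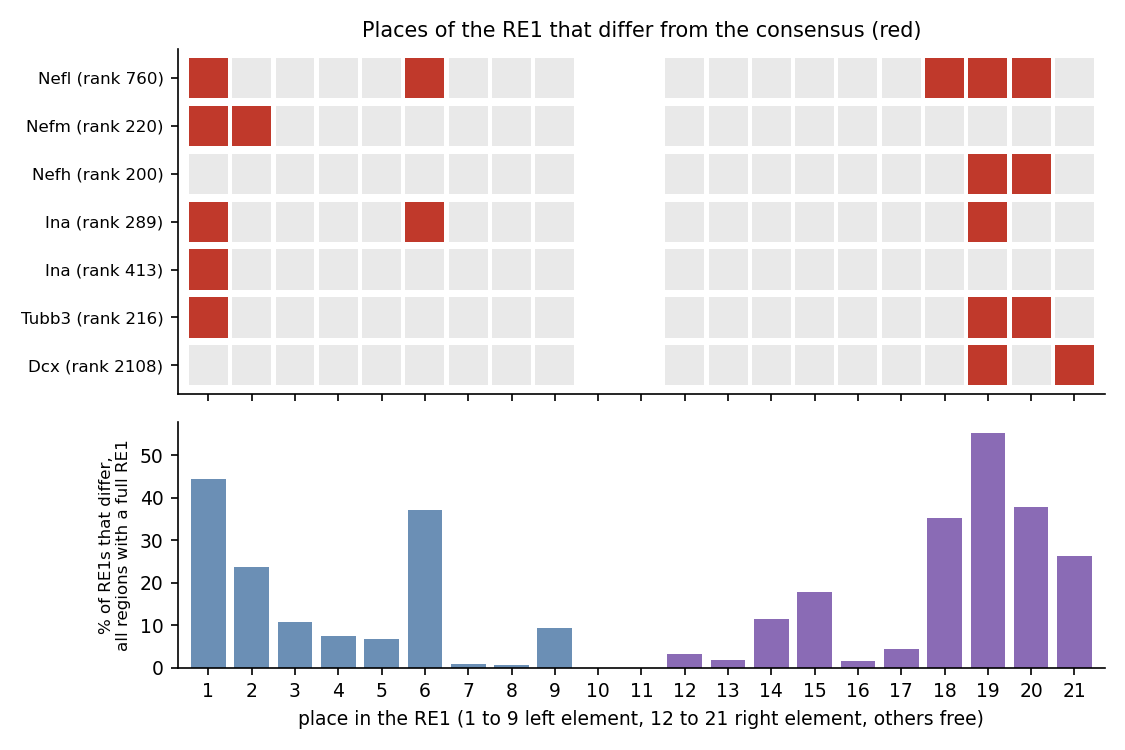
Upper panel, places of the 7 RE1s that differ from the consensus (red) for each gene and rank; lower panel, percentage of the 1454 regions with a full RE1 that differ at each place, left element in blue and right element in purple, places 10 and 11 being free. Differences in the cytoskeletal genes gather at places 1 and 19, each in 5 of 7, and no difference lies between places 7 and 17.

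To ask whether the genes without a region lacked the motif, RE1 matches were counted over each locus, taken as the gene and 20 kb around each TSS. The loci of the 10 genes covered 0.936 Mb and held 7 matches with at most 3 mismatches, or 7.48 per Mb, beside 0.693 per Mb over the loci of all protein-coding genes. With at most 5 mismatches, the limit used for a full RE1, there were 31 matches, or 33.1 per Mb beside 21 per Mb, so the contrast was smaller at the looser limit. Of the 7 matches, 6 lay in a listed region, those of Nefm, Nefh, Tubb3 and Dcx and both of Ina, and 1, in Mtap1b, did not. Over all protein-coding loci 64.6% of 917 such matches lay in a region. In the 10 loci, 6 of the 7 matches are the RE1s of assigned regions, in genes chosen with earlier results known. The density of 7.48 per Mb is therefore not separate from the count of regions.

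Sorted by the best RE1 of the locus, Nefm, Nefh, Ina and Dcx, each with a match of at most 2 mismatches, all had a region, 4 of 4 beside 92.8% of 405 protein-coding genes. Tubb3 and Mtap1b had a best match of 3 mismatches and 1 of the 2, Tubb3, had a region, beside 56.1% of 699 genes. Nefl, Mapt, Mtap2 and Mtap6 had no match with at most 3 mismatches and 1 of the 4, Nefl, had a region, beside 7.06% of 21263 genes. In the set, a region thus went with a close RE1 match in all cases but Mtap1b and Nefl, and the shares over all protein-coding genes fell in the same order. The right element of the consensus was read from the listed regions, so a close match and a listed region are not independent.

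The match in Mtap1b lay within the gene at chr13:100262650-100262670 on the plus strand, 23.896 kb downstream of the TSS, and is shown with its differing bases in capitals because it is the closest match of the set without a region.
Mtap1b, not in a region: ttcTgcaGcagggacagGgcc
Its differences were A4T, C8G and C18G. Among the regions with a full RE1, place 4 differed in 7.43%, place 8 in 0.55% and place 18 in 35.3%. By a log-odds score from a weight matrix of the RE1s in regions of other genes it reached 15.43, whereas the 425 matches with 3 mismatches inside regions scored 17.29 to 28.90, none of them lower, and the 434 outside regions scored 8.13 to 28.30, with 53 lower. Since the matrix was built from bound RE1s, matches inside regions score higher by construction. The Mtap1b score was above 11.05, the 99th percentile of the flanking windows and the limit set for an RE1 by this score. Why no region was listed there was not tested. The 3-mismatch RE1s of Tubb3 and the upstream Ina region scored 28.14 and 28.00.

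In Mapt the closest matches had 4 mismatches. There were 2 of these, neither in a region, at chr11:104092813-104092833, 0.005 kb from a TSS, with a score of 11.00, and at chr11:104143029-104143049, with a score of 16.20. The first score was below the limit of 11.05 and the second above it. Genome-wide, 8.57% of 4853 matches with 4 mismatches lay in a region, and 1.01% of 37519 with 5. The loci of Mtap2 and Mtap6 held 4 and 5 matches with exactly 5 mismatches, and none lay in a region. The Nefl match, with 5 mismatches, was the only one of 22 such matches in the 10 loci to lie in a region, and its score was 21.85. A missing region does not show that REST was absent, since the reads over these loci were not analysed here and the threshold of the list was not stated.

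Related genes of intermediate filaments and microtubules, and of enzymes acting on them, were examined in 5 lists, 3 of which include members of the set. Of 15 intermediate filament genes 4 had a region, and these were Nefl, Nefm, Nefh and Ina. None of the other 11 did, including Prph, the peripherin gene of peripheral neurons, Nes, the nestin gene of neural progenitors, Vim and Gfap. Of 20 tubulin genes 3 had a region: Tubb3 and the alpha-tubulin genes Tuba1c and Tuba1b. The Tuba1c region, of rank 1837, lay 5.875 kb upstream with a full RE1 of 3 mismatches, and that of Tuba1b, of rank 2167, lay 3.740 kb from the TSS with no RE1 element. Both had a worse rank than the region of Tubb3. Of 20 genes of microtubule-associated proteins and the doublecortin family, 2 had a region, Dcx and Mapre3, a gene of a protein that binds growing microtubule ends (rank 929, a right element alone in an intron). The shares, 26.7, 15 and 10%, compare with 10.1% of all protein-coding genes.

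Regions were also listed at enzymes that act on these proteins. Of 15 genes for kinases of tau and neurofilaments and their cofactors, 3 had a region. Cdk5r2, a neuronal activator of the kinase Cdk5, had regions of rank 205 and 723, the better ranked with an RE1 of 2 mismatches 3.189 kb from the TSS. The region assigned to Cdk5 itself, of rank 246, was nearer to the TSS of Accn3, an acid-sensing ion channel gene, at 3.192 kb than to that of Cdk5 at 6.888 kb. Brsk2, a kinase of neuronal polarity, had 4 regions, of rank 549, 910, 1118 and 1987. Of 29 genes for tubulin folding, modification and severing, 6 had a region. Ttll1, the gene of a tubulin polyglutamylase subunit, had the best ranked at 108, 1.891 kb upstream of the TSS with 3 full RE1s, followed by Katna1, the catalytic subunit gene of katanin, at rank 399, 0.120 kb from the TSS and without any RE1 element. Sirt2, a tubulin deacetylase gene (rank 1261), and Tbcd, a folding cofactor gene (rank 1434), were the next. The region assigned to Sirt2 was nearer to the TSS of Nfkbib, at 10.047 kb, than to that of Sirt2, at 10.302 kb. The Tbcd region lay in an intron 17.288 kb from a TSS, with a right element alone. These 2 lists reached 20 and 20.7%, beside 10.1% of all protein-coding genes. Within 10 kb of a TSS the counts were 3 of 15 and 3 of 29, beside 5.81%.

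**Figure D4:**
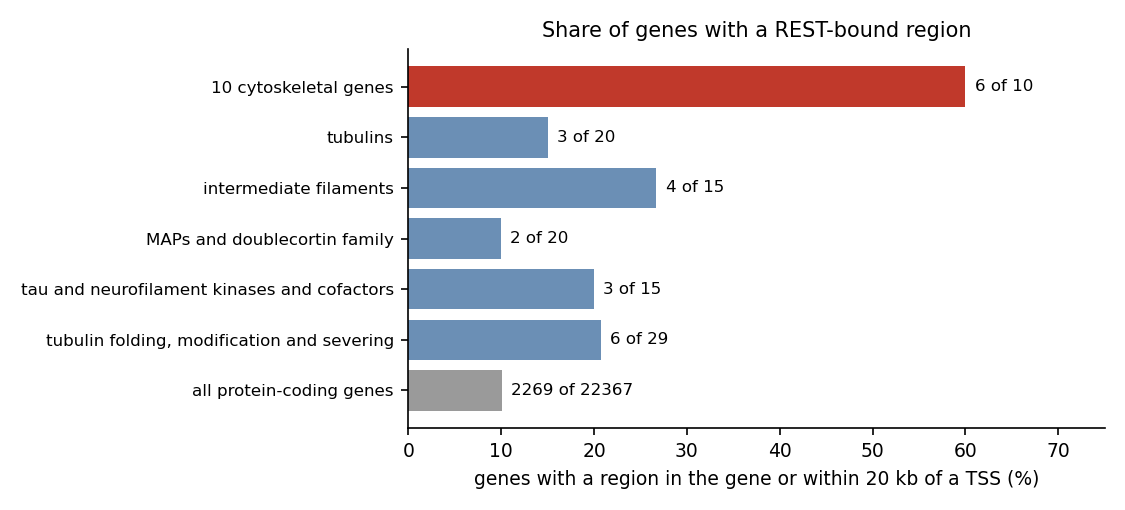
Percentage of genes with a REST-bound region in the gene or within 20 kb of a TSS (horizontal axis), for the 10 cytoskeletal genes, the 5 related lists and all protein-coding genes, with counts beside the bars. The 10 genes (6 of 10) stand above the lists (10 to 26.7%) and all protein-coding genes (10.1%), but they were chosen with earlier results of these data known. The first 3 lists contain members of the 10.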

How the data were processed

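ChIP DNA was pooled, size-selected, amplified and sequenced as 1 library. The authors aligned reads to mm9 (Bowtie in the study's methods, BWA in the submitters' processing notes, versions not given in the sources used here), kept uniquely mapped reads, so that sites in repeated sequence could be missing, and, by the study's methods, retained peaks that PeakRanger and MACS shared. Whether the deposited list, which is longer than the set the study counted, is this shared set or the output of 1 caller was not stated. The deposited rank score orders the regions by enrichment and was the only measurement used. The other deposited columns were coordinates, and whether their start counts from 0 or 1 was not stated. Sequences were read as though it counted from 0, and RE1 coordinates count from 1.

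The genome was NCBIM37 (mm9) with the GENCODE M1 annotation, read with Python 3.11.15, numpy 2.4.6, scipy 1.17.1 and pysam 0.24.0, and figures were drawn with matplotlib 3.10.9. An upstream midpoint within 1 kb of a TSS was called promoter. Single elements were allowed 1 mismatch, with gaps of 3 to 20 bases between both counted as wider spacing. The motif search was tested on simulated data. Distance limits, the use of the gene body, the TSS set, the better ranked part of the list, the mismatch limit, a weight matrix score and the start base were varied.

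The members and lists were chosen with earlier results of these data known. Named were all 10 genes with every region, up to 4 genes with a region of each related list by best rank, and protein-coding genes with a TSS within 20 kb of a member region. Genes of the intermediate filament list without a region, and genes holding or nearest to a region, are named in addition. Mtap6d1 of the microtubule-associated list was not found in the annotation.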

Additional observations from a re-analysis of the deposited data

How the results depend on the processing

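The count of 6 genes with a region ranged from 4 to 8 over the distance limits tried. Within 1 kb of a TSS or in the gene, Nefm, Ina, Tubb3 and Dcx remained, with 4 regions, and the share of all protein-coding genes was 5.38%. Within 5 kb all 6 genes kept a region and the share was 6.4%. Within 50 kb Mapt was added through an intergenic region and Mtap2 through the region in the promoter of Unc80. The median rank became 586.5 and the share 17.1%. With TSS distance alone Dcx was lost and the share was 8.84%. In the better ranked 1252 regions Dcx was lost and the share was 5.36%. These shares follow from the construction of each limit. Use of protein-coding TSSs, of the most upstream TSS or of any base of the region left the same 8 regions. The number of regions with a full RE1 was 6 with at most 3 mismatches, where Nefl was lost, and 7 with at most 6 mismatches, with the weight matrix score, or with the start counted from 1. RE1 matches of the loci that lay in a region numbered 4 of 4, 6 of 9 and 7 of 31 with at most 2, 4 and 5 mismatches, or 100, 66.7 and 22.6%, beside 89.1, 22 and 4.22% over all protein-coding loci. No replicate could be left out, and no paired analysis was possible because the list comes from 1 pooled library. The precision of a rank, and hence of any order among these genes, was therefore unknown.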
